A study of Mus musculus with 22 samples.

Results

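The neural POU genes comprise Pou3f1, Pou3f2, Pou3f3, Pou4f1, Pou4f2 and Pou4f3, taken as a listed set of 6 among the 21827 protein-coding genes of the annotation. Binding and histone marks were mapped by chromatin immunoprecipitation followed by sequencing (ChIP-seq) in cultures of mouse embryonic stem cells, kept in medium with serum and LIF. Peak lists of MTF2, EZH2, H3K27me3 and H3K4me3 came from wild-type E14 cells, a standard mouse embryonic stem cell line. Lists of EZH2, H3K27me3 and H3K4me3 came from Mtf2 GT/GT cells, in which a gene trap cassette interrupts the coding sequence of Mtf2 on both alleles. Their parental line is not named in the labels, so the gene trap and the background of the line cannot be told apart, and whether they lack MTF2 was not checked, since no MTF2 list of theirs was analysed here. A group has 2 libraries but 1 list, 7 lists in all. There was therefore no error between replicates for any value below, and no test between genotypes was possible.

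POU factors bind DNA through a POU-specific domain and a POU homeodomain. Class III members are widely used in the developing brain: Pou3f1 also acts in Schwann cells before myelination, and Pou3f2 and Pou3f3 act in cortical and hypothalamic neurons. Class IV members act in sensory systems: Pou4f1 in sensory ganglia, Pou4f2 in retinal ganglion cells and Pou4f3 in the hair cells of the inner ear. In embryonic stem cells such developmental genes are typically silent and carry H3K27me3, laid down by Polycomb repressive complex 2 (PRC2) through its catalytic subunit EZH2, together with H3K4me3, a mark of promoters. MTF2 is a Polycomb-like accessory subunit of PRC2 that binds unmethylated CpG-rich DNA.

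The depth of the libraries is unknown, because the lists hold positions only. They held 6357 MTF2, 7213 EZH2, 6294 H3K27me3 and 27418 H3K4me3 peaks in wild-type cells, and 840 EZH2, 963 H3K27me3 and 26960 H3K4me3 peaks in gene-trap cells. H3K4me3 was looked up at 8 embryonic stem cell markers, Pou5f1, Nanog, Sox2, Klf4, Esrrb, Zfp42, Tfcp2l1 and Dppa5a. All 8 had H3K4me3 at the promoter in both cell lines, but not at like widths. The summed width went from 21983 bp in wild-type to 4785 bp in gene-trap cells at Zfp42 and from 9598 to 3855 bp at Tfcp2l1. At Esrrb it went from 39395 to 23275 bp, and at Sox2 from 12498 to 18435 bp. Nanog went from 11428 to 9024 bp, Pou5f1 from 10799 to 9221 bp, Klf4 from 8872 to 7492 bp and Dppa5a from 16026 to 15114 bp. Of the 14137 genes with H3K4me3 in both lines, 71.6% had narrower and 28.3% wider promoter peaks in gene-trap cells. The part of such differences between the lines in the results below was not tested. Of 6 neuron markers, Tubb3, Map2, Rbfox3, Syn1 and Stmn2 had H3K4me3 at the promoter in both lines, and Snap25 had it in gene-trap cells only. Of all promoters, 65.5% had H3K4me3 in wild-type and 66.1% in gene-trap cells, so its presence at these markers cannot tell the cell type. Esrrb also had MTF2 (2366 bp), EZH2 (2434 bp) and H3K27me3 (8793 bp) in wild-type cells and 3046 bp of H3K27me3 in gene-trap cells.

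A gene was said to have a peak when a peak of the list shared at least 1 bp with the promoter window, 1 kb on either side of a transcription start site (TSS) of a protein-coding transcript. All positions are on mm10. In wild-type cells all 6 neural POU promoters had MTF2, EZH2, H3K27me3 and H3K4me3. Over all protein-coding promoters, 15.9% had MTF2, 16.6% EZH2, 19.3% H3K27me3 and 65.5% H3K4me3, and 14.6% had all 4. The summed width of the peaks touching a window had a median over the 6 genes of 3621 bp for MTF2, against 1165 bp over the 3481 genes with such a peak. It was 3686 against 1233 bp for EZH2, 17008.5 against 4293 bp for H3K27me3 and 4744 against 2509 bp for H3K4me3. The genes were chosen with earlier results of these lists known, so these medians are descriptions.

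Sequences upstream of 4 of the 6 genes are shown because the series title names DNA binding of MTF2. The stretches of Pou3f2 and Pou4f1 lie inside an MTF2 peak. Those of Pou3f3 and Pou4f2 lie mostly in the space between neighbouring MTF2 peaks. They are the 250 bases before the RefSeq TSS (GRCm38.p6), read 5′ to 3′ along the gene, and capitals mark every GCG on either strand (GCG or CGC, overlaps allowed). The positions are chr4:22488367-22488616 (minus strand) for Pou3f2, chr1:42695518-42695767 (plus strand) for Pou3f3, chr14:104468000-104468249 (minus strand) for Pou4f1 and chr8:78436648-78436897 (minus strand) for Pou4f2. No sequence is shown for Pou3f1 and Pou4f3.
Pou3f2 upstream: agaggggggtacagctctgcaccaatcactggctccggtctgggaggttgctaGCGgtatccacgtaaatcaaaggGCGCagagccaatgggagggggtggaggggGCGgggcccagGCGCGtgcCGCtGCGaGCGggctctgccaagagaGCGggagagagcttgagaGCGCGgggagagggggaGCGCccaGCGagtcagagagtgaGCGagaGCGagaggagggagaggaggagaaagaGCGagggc
Pou3f3 upstream: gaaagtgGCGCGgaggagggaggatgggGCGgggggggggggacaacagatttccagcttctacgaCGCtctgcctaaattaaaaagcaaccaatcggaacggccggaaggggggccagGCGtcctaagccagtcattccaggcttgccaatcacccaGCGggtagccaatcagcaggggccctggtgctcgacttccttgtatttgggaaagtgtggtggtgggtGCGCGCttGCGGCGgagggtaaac
Pou4f1 upstream: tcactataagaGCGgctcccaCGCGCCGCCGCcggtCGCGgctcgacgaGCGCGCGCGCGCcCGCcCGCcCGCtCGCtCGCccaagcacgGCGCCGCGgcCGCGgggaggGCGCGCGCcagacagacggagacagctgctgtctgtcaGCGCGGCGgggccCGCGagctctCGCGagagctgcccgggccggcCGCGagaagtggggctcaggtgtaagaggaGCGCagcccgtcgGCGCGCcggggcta
Pou4f2 upstream: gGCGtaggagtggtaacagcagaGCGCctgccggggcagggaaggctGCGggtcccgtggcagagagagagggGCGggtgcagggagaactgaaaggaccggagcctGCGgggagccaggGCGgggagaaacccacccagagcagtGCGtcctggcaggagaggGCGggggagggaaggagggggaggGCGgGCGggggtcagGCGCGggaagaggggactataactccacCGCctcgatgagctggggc
GCG occurred 20 times upstream of Pou3f2, 13 times upstream of Pou3f3, 51 times upstream of Pou4f1 and 15 times upstream of Pou4f2. Of 32851 RefSeq promoter entries, 76.6% held at least 1 GCG on either strand in the same stretch, with a median of 3. The Pou4f1 stretch stood near the top, with 43 entries holding more, whereas 6782 entries held more than Pou3f3. A match is a description of letters and not a measured binding site.

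In the 2 kb around the TSS all 6 genes were richer in CpG than the median promoter, which had 3.15 CpG per 100 bp. The values were 8.80 at Pou4f1, 7.20 at Pou3f1, 6.85 at Pou3f2, 6.20 at Pou3f3, 5.90 at Pou4f2 and 4.75 at Pou4f3. Within the wild-type H3K27me3 domains, CpG was concentrated in the MTF2 peaks. Inside MTF2 peaks CpG density ran from 4.16 per 100 bp at Pou3f2 to 9.39 at Pou3f1, and in the rest of the domain from 0.778 at Pou3f2 to 2.45 at Pou4f2. It was higher inside than outside the MTF2 peaks at all 6 genes.

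Wild-type H3K27me3 formed 1 domain over each gene, and the 6 domains differed more than 5-fold in width. The widest was that of Pou3f2, at 27663 bp (chr4:22474467-22502129), followed by Pou3f3 with 24275 bp (chr1:42682721-42706995) and Pou4f1 with 21749 bp (chr14:104454515-104476263). Pou4f3 had 12268 bp, Pou3f1 7553 bp (chr4:124654477-124662029) and Pou4f2 5022 bp (chr8:78433231-78438252). Of the 4206 genes with H3K27me3 at the promoter, 74 had a wider domain than Pou3f2 and 1651 a wider one than Pou4f2. The domains covered the whole gene body at Pou3f1, Pou3f2, Pou3f3, Pou4f1 and Pou4f3, and 93.9% of it at Pou4f2. With 1 list per group, no error can be given for this order.

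**Figure D1:**
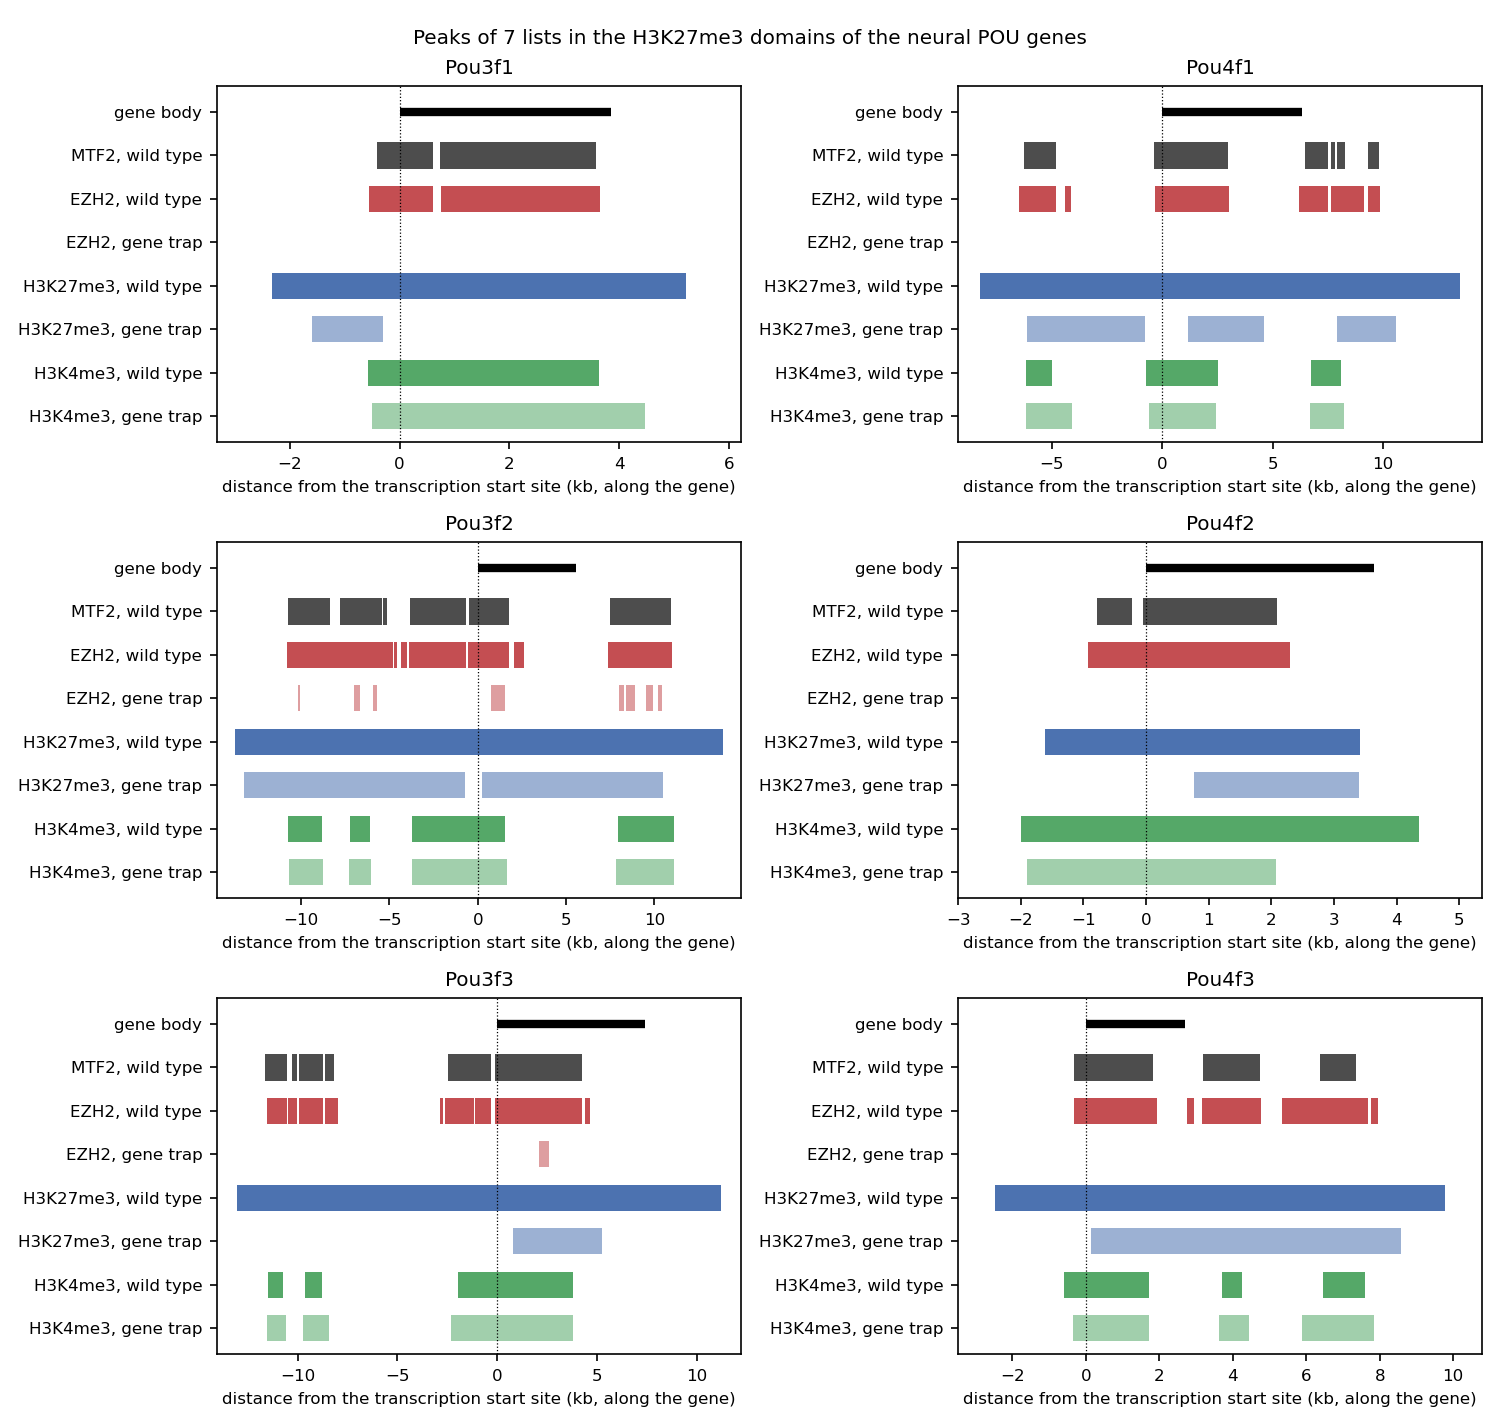
Peaks of the 7 lists (rows) in the wild-type H3K27me3 domain of each neural POU gene, by distance from the TSS in kb along the gene (x axis), with the gene body in black and gene-trap lists in paler colours. Gene-trap H3K27me3 lies beside the 5′-most TSS but not over it at all 6 genes (it covers the second TSS of Pou4f3), and gene-trap EZH2 is left at Pou3f2 and Pou3f3.

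The domains held 25 MTF2 peaks, and all 25 overlapped an EZH2 peak. Of the 30 EZH2 peaks in the domains, 22 overlapped MTF2. MTF2 covered 42.2% and EZH2 49.7% of the 98530 bp of the 6 domains, and H3K4me3 covered 38.4%. At Pou3f1 and Pou4f2 every MTF2 peak of the domain touched the promoter window. The 4 wider domains held MTF2 peaks away from the promoter too: 4 at Pou3f2, 4 at Pou3f3, 5 at Pou4f1 and 2 at Pou4f3.

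At Pou3f1, the Schwann cell and neural factor (plus strand, 124656807 to 124660655 on chromosome 4), 2 MTF2 peaks of 1028 and 2861 bp spanned the TSS and most of the gene. MTF2 covered 90.4% and EZH2 90.9% of the gene body. The non-coding gene Gm2164, antisense to Pou3f1, runs into the domain from the other strand. At Pou3f2 (minus strand, 22482780 to 22488366 on chromosome 4) a peak of 2305 bp spanned the TSS, and a second of 3169 bp lay upstream. Beyond them MTF2 peaks of 228, 2375 and 2383 bp lay more than 5 kb upstream and 1 of 3449 bp lay past the 3′ end of the gene, so that MTF2 covered 13909 bp of the domain but 32.0% of the gene body. The lincRNA gene Gm30731 lies inside the upstream part of the domain.

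At Pou3f3 (plus strand, 42695768 to 42703176 on chromosome 1) the MTF2 peak across the TSS spanned 4321 bp, and its neighbour of 2177 bp lay at the start of Pantr1, a lincRNA gene read the other way. AC122898.1, a non-coding gene annotated as sense overlapping, contains Pou3f3 on the same strand. A cluster of 4 smaller MTF2 peaks, from 254 to 1206 bp, lay 8 to 12 kb upstream inside the same domain. At Pou4f1 (minus strand, 104461676 to 104467999 on chromosome 14) a peak of 3353 bp spanned the TSS, a peak of 1457 bp lay upstream and 4 of 184 to 1035 bp lay past the 3′ end. The lincRNA gene D130079A08Rik reaches into this end of the domain. Pou4f2 (minus strand, 78433010 to 78436645 on chromosome 8) had MTF2 peaks of 2143 and 557 bp, and Pou4f3 (plus strand, 42394539 to 42397249 on chromosome 18, with a second TSS at 42395075) had 1 of 2164 bp at the promoter and 2 of 1554 and 957 bp past its 3′ end.

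In gene-trap cells few EZH2 peaks were left in these domains. The promoter window of Pou3f2 still had a peak, and those of Pou3f1, Pou3f3, Pou4f1, Pou4f2 and Pou4f3 had none. That is 1 of 6 genes, beside 0.733% of all promoters and 4.24% of the 3628 with EZH2 in wild-type cells. Kept EZH2 went with wide wild-type peaks. When those genes were put into 5 groups of equal size by summed wild-type width, the group of widest peaks kept EZH2 at 20.4% of its 726 genes and held 5 of the 6 POU genes. The next group, which held Pou4f3, kept it at 0.69%. Over the 6 domains EZH2 covered 49009 bp in wild-type and 3377 bp in gene-trap cells.

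At Pou3f2 the promoter peaks of EZH2 came to 5494 bp in wild-type and 806 bp in gene-trap cells. Across the whole domain 8 gene-trap EZH2 peaks of 165 to 806 bp were left, covering 2872 of the 16220 bp that EZH2 covered in wild-type cells (17.7%). They lay in 3 places: 4 past the 3′ end of the gene, 1 inside the gene and 3 upstream. Pou3f3 had 1 gene-trap EZH2 peak, of 505 bp, which began 2085 bp past the TSS and so lay outside the window. With a window of 2.5 kb both Pou3f2 and Pou3f3 would count as keeping EZH2, beside 5.25% of the 3771 genes with wild-type EZH2 in that window. Both would also count with a peak anywhere inside the wild-type EZH2 promoter peaks (5.51% of 3628 genes) or with a peak anywhere in the wild-type H3K27me3 domain, a rule that 5.42% of the 4206 genes with such a domain meet. No gene-trap EZH2 peak covered the TSS of any of the 6, beside 1.42% of the 2749 genes with a TSS inside a wild-type EZH2 peak. All 9 gene-trap EZH2 peaks of Pou3f2 and Pou3f3 overlapped a wild-type MTF2 peak and a wild-type EZH2 peak.

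The remaining EZH2 peaks inside genes both lay wholly in coding sequence. Pou3f2 and Pou3f3 each have 1 exon, and the peaks covered bases 508 to 1313 of 1335 in the coding sequence of Pou3f2 and bases 708 to 1212 of 1491 in that of Pou3f3, counted from the start codon without the stop codon. The other 7 peaks, all at Pou3f2, lay in no annotated gene. The central 300 bases of these 2 peaks are shown because they are the stretches of class III coding sequence where EZH2 stayed in the list. A shorter peak 10 kb upstream of Pou3f2 and the peak with the fewest CpG are given with them, each whole. All are read along the POU gene from the GRCm38.p6 genome, at chr4:22487072-22487371 (minus strand), chr1:42697955-42698254 (plus strand), chr4:22498403-22498567 (minus strand) and chr4:22494094-22494269 (minus strand), with GCG on either strand in capitals.
Pou3f2 coding peak, centre: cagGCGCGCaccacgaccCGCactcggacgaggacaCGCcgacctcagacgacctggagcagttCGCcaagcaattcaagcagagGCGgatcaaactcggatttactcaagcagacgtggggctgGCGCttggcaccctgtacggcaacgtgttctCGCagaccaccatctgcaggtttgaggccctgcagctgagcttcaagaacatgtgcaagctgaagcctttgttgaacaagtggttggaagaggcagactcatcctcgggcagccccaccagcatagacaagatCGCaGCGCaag
Pou3f3 coding peak, centre: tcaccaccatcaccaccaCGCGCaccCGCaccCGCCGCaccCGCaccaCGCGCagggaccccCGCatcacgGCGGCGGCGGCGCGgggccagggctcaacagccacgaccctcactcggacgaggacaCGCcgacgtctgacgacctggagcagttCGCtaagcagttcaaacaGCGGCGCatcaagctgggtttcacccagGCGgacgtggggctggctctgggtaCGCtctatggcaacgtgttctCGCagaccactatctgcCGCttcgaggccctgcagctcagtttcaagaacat
Pou3f2 upstream peak at 10 kb: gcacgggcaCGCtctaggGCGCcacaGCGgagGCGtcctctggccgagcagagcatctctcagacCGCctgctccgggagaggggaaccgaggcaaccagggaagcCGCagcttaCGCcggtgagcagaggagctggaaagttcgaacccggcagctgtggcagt
Pou3f2 upstream peak with the fewest CpG: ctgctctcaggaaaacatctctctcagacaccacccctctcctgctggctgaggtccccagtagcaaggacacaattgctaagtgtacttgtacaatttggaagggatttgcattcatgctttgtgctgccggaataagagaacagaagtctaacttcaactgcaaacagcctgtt
The best local alignment of the whole peaks in coding sequence ran over 407 columns with 79.4% identity. The longest run of bases found in both whole peaks was 23 bases. Both genes belong to class III, and whether this likeness bears on EZH2 was not tested. Pou3f1, the other class III gene of the set, had no gene-trap EZH2 peak and was not aligned. The 9 gene-trap EZH2 peaks varied widely in CpG, from 0.568 per 100 bp in the last sequence, which holds no GCG, to 10.1 in the Pou3f3 peak. At Pou3f2 the gene-trap EZH2 peaks as a whole had 4.60 CpG and 2.65 GCG per 100 bp. The rest of the wild-type EZH2 peaks there had 3.49 CpG and 2.68 GCG. At Pou3f3 the gene-trap EZH2 peak had 10.1 CpG and 8.51 GCG per 100 bp. The rest of the wild-type EZH2 peaks of Pou3f3 had 5.91 CpG and 4.56 GCG.

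**Figure D2:**
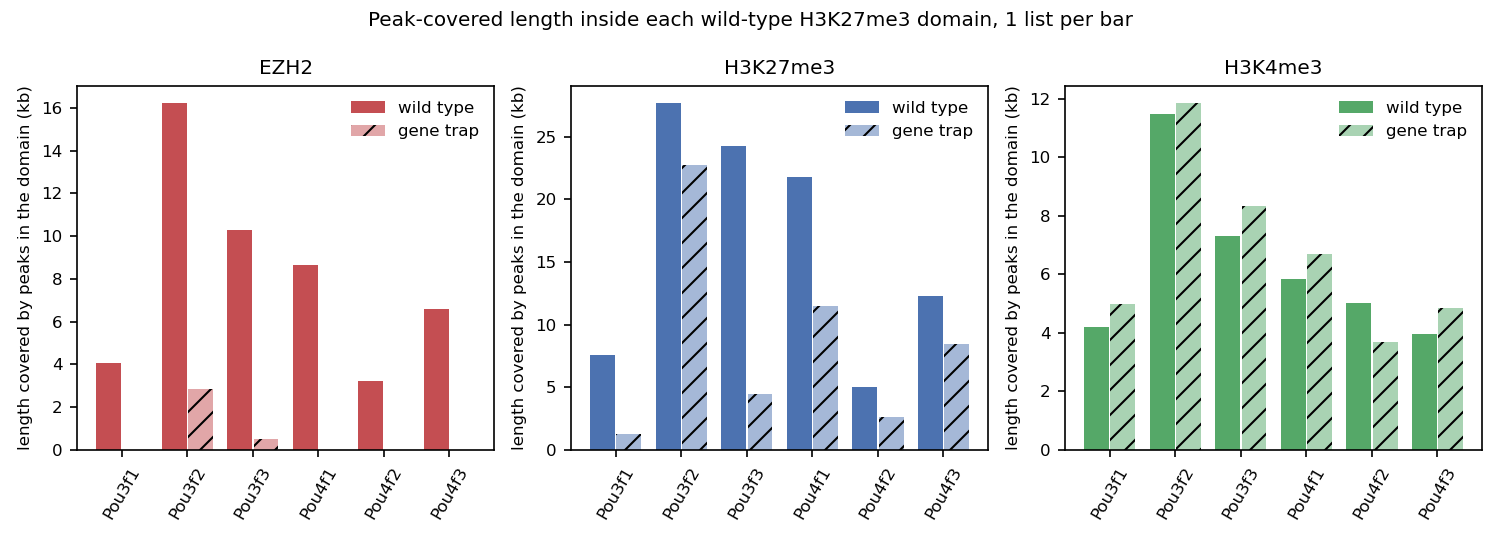
Length in kb covered by EZH2, H3K27me3 and H3K4me3 peaks (y axes) inside the wild-type H3K27me3 domain of each neural POU gene, in wild-type (solid) and gene-trap (hatched) cells, 1 list per bar and so no error bars. EZH2 is at 0 in gene-trap cells at 4 genes, H3K27me3 is shorter at all 6, and H3K4me3 is longer at 5 and shorter at Pou4f2.

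H3K27me3, in contrast, was still in the list at every neural POU promoter. All 6 windows had a gene-trap H3K27me3 peak, beside 2.68% of all promoters and 13.7% of the 4206 with the mark in wild-type cells. By the looser rule of a peak anywhere in the domain the share was 15.5%. Wide domains kept the mark more often: of 5 groups of equal size by summed H3K27me3 width, that of the widest, which held Pou3f1, Pou3f2, Pou3f3, Pou4f1 and Pou4f3, kept it at 47.9%, and the next, which held Pou4f2, at 12.6%. Pou3f1, Pou3f3, Pou4f1, Pou4f2 and Pou4f3 thus kept H3K27me3 without EZH2 at the window, beside 12.0% of the 3420 genes that had EZH2 and H3K27me3 in wild-type cells. The lists give no heights, so the strength of kept peaks could not be compared.

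How much of each domain stayed varied among the genes. Gene-trap H3K27me3 covered 22706 of 27663 bp at Pou3f2 (82.1%), 8451 of 12268 bp at Pou4f3 (68.9%), 11454 of 21749 bp at Pou4f1 (52.7%) and 2637 of 5022 bp at Pou4f2 (52.5%). Pou3f3 kept 4432 of 24275 bp (18.3%) and Pou3f1 1298 of 7553 bp (17.2%). The median over the 6 was 52.6%, beside 49.3% over the 578 genes that kept a promoter peak and 0% over all 4206. The order was not that of domain width: the domains of Pou3f2 and Pou3f3 were the widest and kept 82.1% and 18.3%. Pou3f2, with the most H3K27me3 left, also had the most gene-trap EZH2. Pou4f3, next in H3K27me3, had no gene-trap EZH2 peak in its domain.

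**Figure D3:**
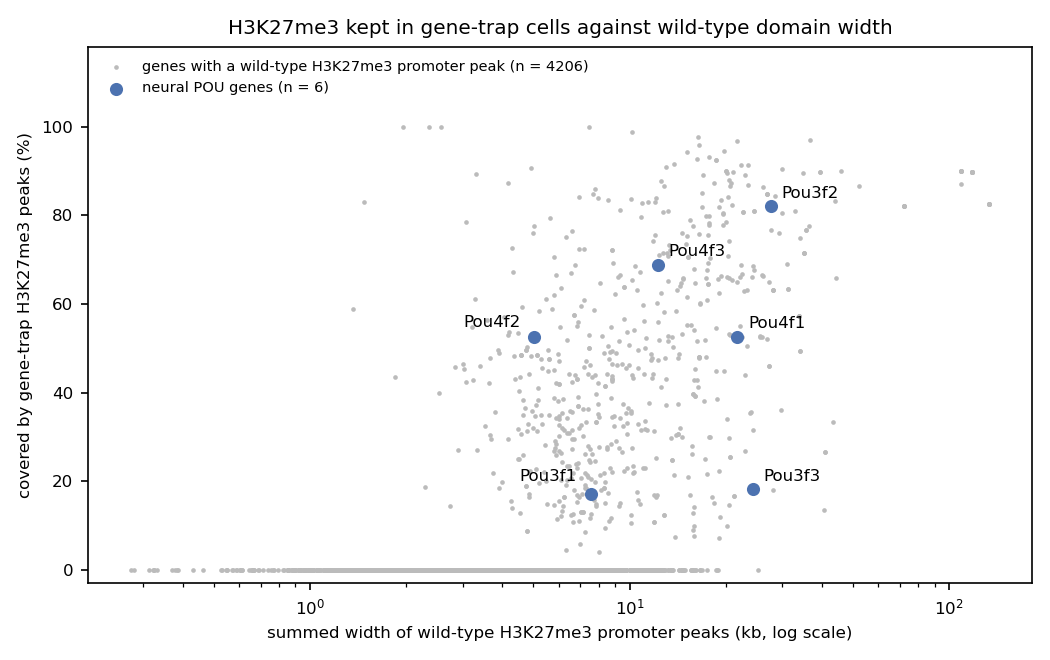
Percent of the wild-type H3K27me3 promoter peaks that gene-trap H3K27me3 covers (y axis) against their summed wild-type width in kb (x axis, log scale), with 1 grey point per gene for 4206 genes and the 6 neural POU genes in blue. The POU genes run from 17.2% at Pou3f1 to 82.1% at Pou3f2, and none is at 0.

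What the 6 genes shared was the place where H3K27me3 was missing. In wild-type cells the TSS lay inside the H3K27me3 domain at all 6, and in gene-trap cells no H3K27me3 peak covered the 5′-most TSS of any of them. Pou4f3 has a second TSS that a gene-trap peak did cover. Counting any TSS, 1 of the 6 genes had a TSS inside a gene-trap H3K27me3 peak. Among the 560 genes that kept a promoter peak and had a TSS inside the wild-type peak, 54.3% did, and among all 3543 genes with a TSS inside a wild-type peak 8.58% did. A gene with more than 1 TSS can meet this rule more easily. By the 5′-most TSS alone, gene-trap H3K27me3 lay 100 bp upstream at 45.8% of the 578 genes that kept a promoter peak. It lay 100 bp downstream at 49.0% of them, and at neither place in the 6 POU genes. The gene-trap peaks therefore covered only part of the window around the 5′-most TSS, and how much varied. They covered 194 of its 2001 bp at Pou4f1, 196 at Pou3f3, 239 at Pou4f2, 700 at Pou3f1, 872 at Pou4f3 and 988 at Pou3f2. At least 200 bp was thus covered at 4 of the 6, beside 13.0% of the 4172 genes with as much in wild-type cells.

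The gap had different sizes and sides. At Pou3f2 it was a break of 1013 bp (chr4:22488102-22489114) between gene-trap peaks of 10205 and 12501 bp, reaching 748 bp upstream and 264 bp downstream of the TSS. At Pou4f1 a break of 1965 bp (chr14:104466841-104468805) lay between peaks of 3431 and 5316 bp. The other genes kept H3K27me3 on 1 side of the TSS only. At Pou3f3 it began 805 bp downstream of the TSS, at Pou4f2 762 bp downstream and at Pou4f3 129 bp downstream, with nothing left upstream of the TSS inside the wild-type domain. At Pou3f1 the reverse held: the single gene-trap peak of 1298 bp left 300 bp before the TSS uncovered, and the gene body, wholly covered in wild-type cells, had none.

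H3K4me3 lay in the gap. At Pou3f2 and Pou4f2 it covered the whole gap in both lines. At Pou4f1 it covered 96.3% in wild-type and 89.8% in gene-trap cells, and at Pou3f1 71.4% and 86.5%. The gaps of Pou3f3 and Pou4f3 run on through the upstream part of the domain, and H3K4me3 covered 31.2% and 38.5% of the former and 27.3% and 18.1% of the latter. Over the whole domain H3K4me3 covered 30.1% in wild-type and 34.4% in gene-trap cells at Pou3f3, and 32.4% and 39.6% at Pou4f3. The domain shares were 55.8% and 66.0% at Pou3f1, 41.5% and 42.8% at Pou3f2, and 26.8% and 30.8% at Pou4f1. At Pou4f2 H3K4me3 covered the whole domain in wild-type cells, gap included, and 73.3% of it in gene-trap cells. CpG density did not follow the gap in the same way at all genes. It was higher in the gap than in the kept H3K27me3 at Pou3f1 (7.08 against 0.924 per 100 bp), Pou3f2 (6.52 against 2.39), Pou4f1 (9.01 against 3.37) and Pou4f2 (5.36 against 3.94). It was lower at Pou3f3 (2.71 against 7.45) and Pou4f3 (1.72 against 3.35). These gaps reach 13047 bp (Pou3f3) and 2484 bp (Pou4f3) upstream, to the edge of the domain, so their values are mostly those of upstream sequence. In the 2 kb around the TSS CpG density was 6.20 at Pou3f3 and 4.75 at Pou4f3.

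**Figure D4:**
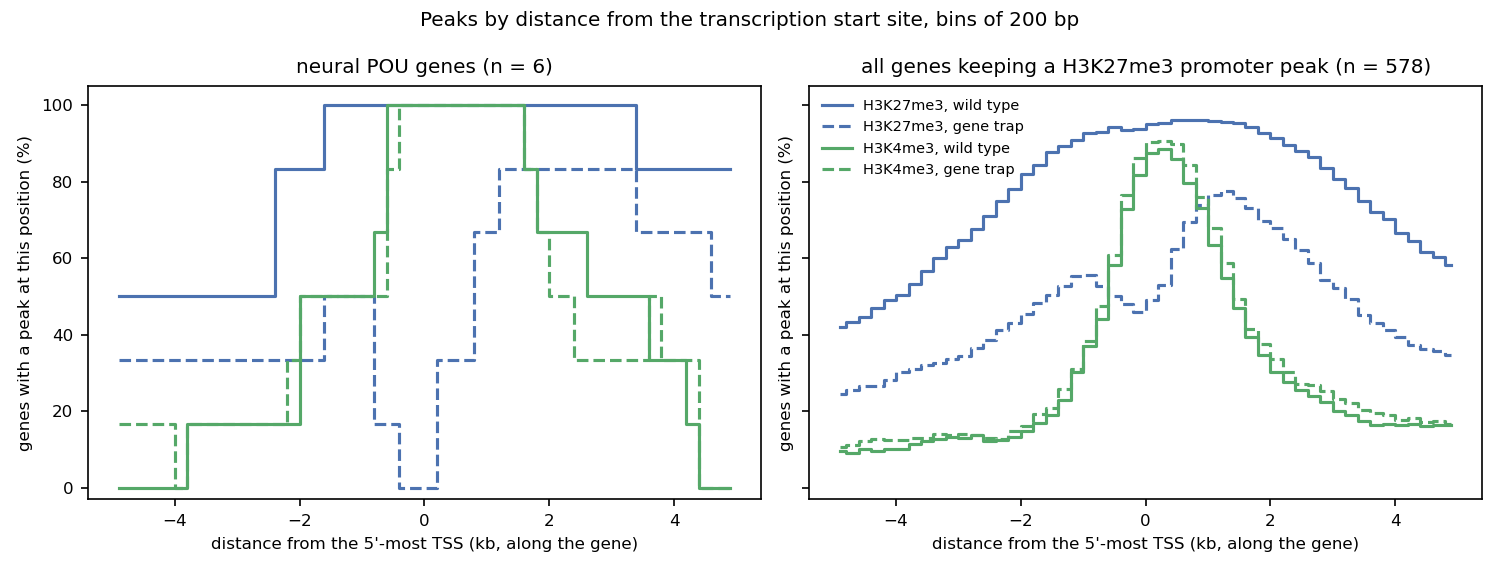
Percent of genes with an H3K27me3 or H3K4me3 peak (y axis) by distance from the 5′-most TSS in kb along the gene (x axis, bins of 200 bp), for the 6 neural POU genes (left) and all 578 genes that kept H3K27me3 at the promoter (right), wild type as solid and gene trap as dashed lines. Gene-trap H3K27me3 falls to 0 of 6 POU genes just around the TSS and to 45.8% of the 578 genes just upstream of it.

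H3K4me3 stayed at every neural POU promoter. All 6 genes had it in gene-trap cells, beside 66.1% of all promoters and 98.8% of the 14306 genes with the mark in wild-type cells, so this count is near the background. Promoter peak widths went from 4213 bp in wild-type to 4988 bp in gene-trap cells at Pou3f1, from 5275 to 5386 bp at Pou3f2 and from 5743 to 6118 bp at Pou3f3. They went from 3264 to 3039 bp at Pou4f1, from 6367 to 3983 bp at Pou4f2 and from 2298 to 2073 bp at Pou4f3. The peaks of Pou3f1, Pou3f2 and Pou3f3 were thus wider and those of Pou4f1, Pou4f2 and Pou4f3 narrower in gene-trap cells. Of the 14137 genes with H3K4me3 in both lines, 28.3% had wider and 71.6% narrower promoter peaks in gene-trap cells. Without replicates it is not known which of these differences exceed the error.

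At Pou4f2 the wild-type H3K4me3 peak ran 4362 bp past the TSS, over the whole gene, and the gene-trap peak ended at 2075 bp. Gene-trap H3K27me3 covered the gene from 762 to 3398 bp past the TSS, short of its 3′ end. Away from the promoters, the domains of Pou3f2, Pou3f3, Pou4f1 and Pou4f3 held 9 further H3K4me3 peaks in each line. These off-promoter peaks were longer in the gene-trap list in each case, for example 1169 and 2090 bp upstream of Pou4f1 and 1129 and 1954 bp past the 3′ end of Pou4f3.

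Over gene bodies, EZH2 was left at Pou3f2 and Pou3f3 in gene-trap cells. In wild-type cells MTF2 covered from 32.0% (Pou3f2) to 90.4% (Pou3f1) of the gene body, and EZH2 from 42.1% to 90.9% at the same genes. In gene-trap cells EZH2 covered 14.4% of Pou3f2 and 6.82% of Pou3f3, and no part of Pou3f1, Pou4f1, Pou4f2 and Pou4f3. H3K27me3 still covered 95.3% of Pou3f2, 95.2% of Pou4f3, 72.5% of Pou4f2, 59.8% of Pou3f3 and 54.3% of Pou4f1, but none of Pou3f1. H3K4me3 covered 27.4% of the gene body at Pou3f2 and all of it at Pou4f2 in wild-type cells, and 29.6% at Pou3f2 and all of it at Pou3f1 in gene-trap cells, the lowest and highest shares.

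MTF2, EZH2 and H3K27me3 all marked 3 of the other 9 POU genes in wild-type cells. Of all promoters, 15.9% had MTF2, 16.6% EZH2 and 19.3% H3K27me3. The 3 were Pou3f4, the remaining class III gene, which acts in brain and inner ear, Pou2f3, the regulator of tuft cells, and Pou6f1. None of the 3 kept EZH2 or H3K27me3 at the promoter, and no gene-trap H3K27me3 peak lay anywhere in their domains. Among all genes with the wild-type mark at the promoter, 4.24% kept EZH2 and 13.7% kept H3K27me3. Their domains were narrower than all 6 of the neural set, at 2953 bp for Pou2f3, 4409 bp for Pou3f4 and 5008 bp for Pou6f1, close to the 5022 bp of Pou4f2. Pou3f4 had no wild-type H3K4me3 at its promoter and a gene-trap peak of 1332 bp. Pou5f1, the pluripotency factor that embryonic stem cells express, had H3K4me3 alone, with 10799 bp in wild-type and 9221 bp in gene-trap cells. Pou2f1 and Pou2f2 also had H3K4me3 alone, and Pou1f1 and Pou5f2 had no promoter peak in any list.

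Of 16 genes known to act upstream of, with or downstream of neural POU factors, 14 had MTF2, EZH2 and H3K27me3 in wild-type cells. Over all promoters the shares were 15.9% for MTF2, 16.6% for EZH2 and 19.3% for H3K27me3. EZH2 stayed at 3 of the 14: Neurog2, a proneural factor (3698 to 154 bp), Gfi1, which acts after Pou4f3 in hair cells (4604 to 276 bp), and Eomes, which acts after Pou4f2 in the retina (4996 to 382 bp). Of all genes with the wild-type mark at the promoter, 4.24% kept EZH2 and 13.7% kept H3K27me3. In the group of widest wild-type EZH2 peaks, which starts at 2408 bp, 20.4% kept EZH2. In the group of widest H3K27me3 peaks 47.9% kept H3K27me3. Of the 14, H3K27me3 stayed at 11. Among them were Neurog2, Gfi1, Eomes, Neurog1, Egr2, Nes and Dll1, and also Isl1, which acts with Pou4f1 in sensory neurons and kept 48.6% of its domain, and Atoh1, which acts before Pou4f3 in hair cells and kept 52.5%. Sox11, Atoh7, which acts before Pou4f2 in the retina, and Sox10, which acts before Pou3f1 in Schwann cells, had no gene-trap H3K27me3 peak. Of the 11, all with a TSS inside the wild-type peak, 4 had a TSS inside the gene-trap peak. Among all 560 genes that kept a promoter peak and had a TSS inside the wild-type peak, 54.3% did. Sox2 and Myt1l had none of the 3 in wild-type cells.

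Across the 7 lists, the gene most alike to Pou3f1, Pou3f2, Pou3f3, Pou4f2 and Pou4f3 was sought by the distance in log2(summed promoter peak width in bp + 1). Pfdn4 was nearest to Pou4f2 (distance 0.43), Isl1 to Pou4f3 (0.45), Irx2 to Pou3f3 (0.59), Fst to Pou3f1 (0.61) and Dlx2 to Pou3f2 (0.77). Dlx2 had 890 bp of gene-trap EZH2 and 16387 bp of gene-trap H3K27me3, beside 806 and 22706 bp at Pou3f2. Fst, Irx2, Pfdn4 and Isl1 had no gene-trap EZH2 at the promoter and had gene-trap H3K27me3 of 1664 bp (Fst) to 6960 bp (Isl1).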

How the data were processed

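The 7 deposited peak lists were analysed here, 1 for each of 7 groups. In the deposited lists a peak has a position and no score, count or p-value, and starts were counted from 0 and converted to positions counted from 1. The labels of a group's 2 libraries point to 1 shared list. MACS2 2.7, BWA 0.7.10-r789 and CASAVA are named as tools, and mm10 (GRCm38) as the build, in the submitters' processing notes, which give no roles. The threshold, the control and the way libraries were combined are not given in the sources used here. A peak missing from a list may be below the threshold at that depth. The other 8 of the 22 samples were not analysed here.

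Promoters were windows of 1 kb on either side of any protein-coding TSS of the GENCODE M21 basic set, with 1 entry per symbol and mitochondrial genes left out. A mark was kept when wild-type and gene-trap peaks both touched the window by at least 1 bp. Overlap code was tested on simulated data. Python 3.11.15, pandas 2.3.3 and pysam 0.24.0 were used. The members and lists were chosen with earlier results of these data known. All 6 members are named, as are other POU genes, genes of the 16 that act with them, genes inside the domains, and the nearest gene by peak width, leaving out predicted genes and those sharing a peak. Some genes these rules name are not reported here.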

Additional observations from a re-analysis of the deposited data

How the results depend on the processing

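The wild-type counts at promoters (6 of 6 for MTF2, EZH2, H3K27me3 and H3K4me3) and the gene-trap count for H3K4me3 were 6 under each of the 4 alternatives for the call (a window of 2.5 kb, the TSS inside the peak, at least 200 bp of the window covered, peaks of at least 500 bp). For gene-trap EZH2, the count of 1 became 2 with a window of 2.5 kb, 0 with the TSS inside the peak, and 2 with a gene-trap peak anywhere inside the wild-type promoter peaks or, chosen after seeing the data, inside the H3K27me3 domain, since Pou3f3 then counts. The matching shares were 5.25% of the 3771 genes with wild-type EZH2 in that window, 1.42% of the 2749 with a TSS inside a wild-type EZH2 peak, 5.51% of the 3628 with wild-type promoter EZH2 and 5.42% of the 4206 with a domain. For gene-trap H3K27me3, the count of 6 became 1 with the TSS inside the peak, beside 8.58% of the 3543 genes with a TSS inside a wild-type peak, and 4 with at least 200 bp covered, beside 13.0% of 4172 genes, and it was 6 under the others. With the widest peak alone, the median promoter width was 3015 bp for MTF2 and 3212.5 bp for EZH2, and those of the other lists did not change. Extending gene bodies by 5 kb on either side took the median covered share in wild-type cells from 57.4 to 35.8% (MTF2), from 62.1 to 42.0% (EZH2), from the whole body to 86.7% (H3K27me3) and from 57.2 to 32.1% (H3K4me3). In gene-trap cells it went from 66.2 to 42.5% (H3K27me3) and from 54.4 to 35.5% (H3K4me3). No paired analysis was possible because each list stands for both libraries of its group, and no replicate could be left out for the same reason. Depth is unknown, so it is not known how many missing gene-trap EZH2 peaks lie just below the threshold.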
